A study of Mus musculus with 6 samples.

Results

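The Egr, Nr4a and Ier immediate early genes were followed in mouse bone marrow cultures treated with midkine. The group holds 9 genes chosen by symbol: Egr1, Egr2, Egr3, Nr4a1, Ier2, Ier3, Ier5, Zfp36 and Btg2. All 9 were among the 14912 genes of the table, and all 9 passed the filter on low values. Bone marrow cells of wild-type C57BL/6J mice were grown with 50 ng/ml of FLT3LG, a cytokine on which dendritic cell development depends. Both groups received it, and it was renewed on day 7. The midkine group (3 libraries) had 10 ng/ml of recombinant human MIDKINE, a secreted growth factor that binds heparin, for the last 2 days of culture, and the control group (3 libraries) had none. RNA was read from its 3′ ends in the whole culture, and no sort is named in the labels. No source used here gives the age of the mice or says whether replicates came from separate mice or cultures. If they did not, the p-values measure only the spread between these libraries, which may be technical.

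Immediate early genes are transcribed within minutes of a stimulus, without new protein synthesis, when kinases such as ERK act on factors already bound to their promoters. Serum response factor with its partners binds the CArG box, and CREB binds the cAMP response element (CRE). Most of the messages are short-lived, and some carry AU-rich elements through which proteins such as that of Zfp36 bring about their decay. In myeloid cells these genes respond to growth factors, cytokines, adhesion and microbial products. Their first pulse after a stimulus is usually brief, and here the cells had been with midkine for 2 days.

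Promoter sequence is shown because the 9 genes share a mode of induction rather than a single family. RefSeq windows of GRCm38.p6, from 250 bases before to 50 after a start site, were found for 6 of the 9 members, and there were none for Egr1, Egr3 and Ier2. A CArG box was found in 2 members, Egr2 and Zfp36, against 1.63% of all 32851 windows. The CArG box has 10 bases, CC, a run of A or T, then GG, and all motifs were searched on both strands. The full CRE (TGACGTCA) was found in 1 member, Btg2, against 1.79% of windows. Its core (TGACG, or CGTCA on the other strand, which the full CRE also contains) was found in 3 members, Btg2, Egr2 and Nr4a1, against 20.8%. Egr2 had 5 windows for its start sites, 4 of them with a CArG box. Neither Ier3 nor Ier5 held any of these letters in its window. The stretches below run 5′ to 3′ toward the start site on the gene's strand and leave out annotated exons. Capitals mark CArG boxes, CREs and CRE cores. The Zfp36 site lies within an annotated exon of a longer transcript, so only 30 bases around it are given.
Egr2, chr10:67537619-67537868, plus strand: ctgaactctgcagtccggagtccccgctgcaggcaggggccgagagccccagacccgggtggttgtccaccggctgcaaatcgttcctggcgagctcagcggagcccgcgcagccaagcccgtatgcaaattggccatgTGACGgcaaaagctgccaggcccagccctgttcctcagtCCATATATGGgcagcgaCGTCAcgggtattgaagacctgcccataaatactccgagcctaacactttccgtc
Zfp36, 30 bases around its CArG box, chr7:28379267-28379296, minus strand: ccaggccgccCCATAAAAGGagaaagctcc
Nr4a1, chr15:101266596-101266845, plus strand: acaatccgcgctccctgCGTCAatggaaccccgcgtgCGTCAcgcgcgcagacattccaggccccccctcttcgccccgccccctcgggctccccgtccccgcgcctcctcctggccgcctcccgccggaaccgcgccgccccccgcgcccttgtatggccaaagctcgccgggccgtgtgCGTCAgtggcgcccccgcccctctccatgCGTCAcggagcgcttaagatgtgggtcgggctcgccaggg
Btg2, chr1:134079156-134079405, minus strand: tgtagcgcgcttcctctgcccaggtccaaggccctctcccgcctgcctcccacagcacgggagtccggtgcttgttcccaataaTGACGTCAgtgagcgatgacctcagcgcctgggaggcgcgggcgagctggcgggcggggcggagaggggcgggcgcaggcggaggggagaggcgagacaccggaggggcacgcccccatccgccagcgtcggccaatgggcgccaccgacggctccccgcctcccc
Ier3, chr17:35821463-35821683, plus strand: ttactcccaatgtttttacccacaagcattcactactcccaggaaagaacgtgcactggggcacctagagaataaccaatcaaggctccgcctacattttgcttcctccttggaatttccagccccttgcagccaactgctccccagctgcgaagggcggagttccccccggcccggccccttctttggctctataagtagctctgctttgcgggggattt
The CArG box of Egr2 lies 72 bases before its start site and that of Zfp36 lies 58 bases before. Nr4a1 had 4 CRE cores, the nearest 40 bases before the start. A match is a description of letters and not evidence of binding.

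The members also share a compact gene structure. In GENCODE vM21 on GRCm38, 8 of the 9 had at most 3 exons, against 11.9% of 10824 tested genes with a coding transcript. Their median span was 3951 bases, against 24770.5. Ier2 and Ier5 have 1 exon each, whereas Nr4a1 has 8 exons over 20527 bases. The 7-base core of the AU-rich site that the Zfp36 protein binds, TATTTAT in DNA letters, was searched on the sense strand of the 3′ untranslated region. It was present in 3 members, against 28.1% of tested genes. Ier3 had 4 such sites in 613 bases, Zfp36 had 3 in 774 and Btg2 had 1 in 2199. The 30 bases with the most sites, 2 in each gene, are shown for Ier3 and Zfp36. These genes were picked because Zfp36 encodes the binding protein and Ier3 had the largest rise. Capitals mark the 7-base core.
Ier3, 30 bases of the 3′ untranslated region: ctaattaaTATTTATgTATTTATgtatatc
Zfp36, 30 bases of the 3′ untranslated region: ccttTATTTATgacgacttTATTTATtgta
Egr1, Egr2, Egr3, Nr4a1, Ier2 and Ier5 held no such core in the transcript used.

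With midkine, 8 of the 9 immediate early genes rose and none fell. Ier3 rose 7.24-fold and Egr1 2.50-fold. Zfp36, Egr2 and Ier2 rose between 1.73-fold and 1.85-fold, and Ier5, Egr3 and Btg2 by less. Nr4a1 did not pass the test. A call here is an adjusted p under 0.05 in limma over all 11844 genes with a mean normalised read count of at least 10. Over those genes 20.9% were called higher and 21.8% lower, 42.7% in all, so the share of higher calls among the members was well above that of the whole table. The members were chosen with earlier results of these data known, so that comparison describes the group and is not a test of it. In 6 members every midkine library lay above every control library, as did 25.1% of all genes tested. Ier3 and Egr1, 2 of the 9, rose at least 2-fold, as did 6.22% of all genes. With scaling to total counts 6 members were called higher, when 10.8% of all genes were called higher and 40.7% lower. The median log2 fold change was 0.79 over the 9 members and -0.01 over all genes tested. Fold changes are on the scale of log2(normalised read count + 1), which understates changes of low genes. All 9 fold changes were above 0, so 0 were lower at an unadjusted p under 0.05, and 0 with edgeR or DESeq2, which both called 8 higher. In bulk RNA, a change in the number of cells that express a gene and a change in RNA per cell cannot be told apart.

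**Figure D1:**
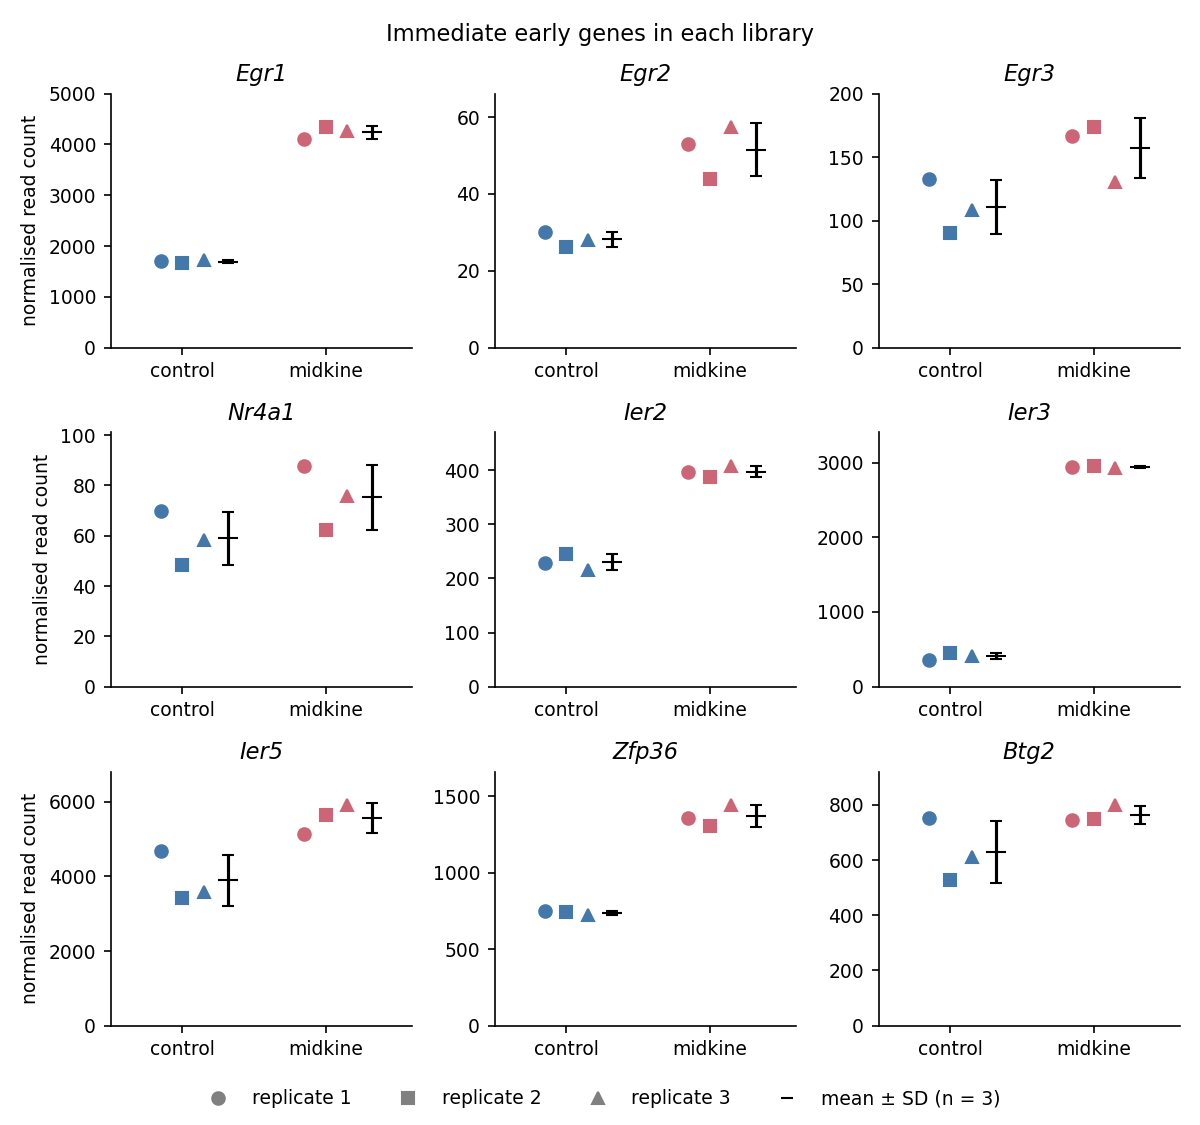
Normalised read counts (vertical axes, each from 0) of the 9 immediate early genes in 3 control (blue) and 3 midkine libraries (red), with a symbol for each replicate and bars for the mean ± SD. Ier3 lies between 363 and 445 in control and between 2927 and 2960 in midkine libraries, while the groups of Egr3, Nr4a1 and Btg2 overlap.

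Libraries held 5089338 to 5532055 reads in control and 5685055 to 6453768 in midkine cultures. Pan dendritic cell markers were abundant, with summed counts of 44349 to 47659 in control and 50811 to 54107 in midkine libraries. Most of that sum came from H2-Aa, H2-Ab1 and Cd74, with control means of 17072, 15193 and 11797. Of these 6 markers 2 were higher, 1 was lower and 3 were not called. The lower one was Zbtb46 (log2 fold change -0.47), and these genes were named after their values were seen. All 8 type 1 and all 7 measured plasmacytoid dendritic cell markers were lower with midkine. Of 6 type 2 dendritic cell markers 4 were higher and none was lower, with all 6 fold changes above 0 (median log2 fold change 0.45) and sums of 2871 to 3125 in control and 3744 to 4335 in midkine libraries. Beside the rise of the early genes, 6 of 7 measured stromal markers rose and 1 fell, and their summed count was 9352 to 11193 in control and 24288 to 28634 in midkine libraries. The summed count of 8 neutrophil markers was 533 to 660 and 38.5 to 69.9, with Elane, too low to be tested, at 5 reads in control and 0 in midkine libraries. Mitochondrial ribosomal RNA took 9.33% to 9.86% of normalised counts in control and 18.1% to 20.9% in midkine libraries. Among 10 macrophage markers 3 rose and 4 fell, with sums of 4094 to 5569 and 3724 to 3978. Of 4 tested B cell markers 2 were lower, the 6 measured summed to 134 to 258 and 110 to 144, and Vpreb1 had 85 reads in control and 0 in midkine libraries. T and NK cell markers summed to at most 14.7, basophil and mast cell markers to at most 9.38 and erythroid markers to at most 6.41. The part of these marker and RNA shifts in the result was not tested.

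The Egr genes encode zinc finger transcription factors that share a GC-rich binding site. Egr1, on chromosome 18 from 34859823 to 34864984, had normalised read counts of 1695, 1662 and 1717 in control libraries 1, 2 and 3 and of 4098, 4348 and 4265 in the midkine libraries. The groups were far apart, with a control SD of 27.7 around a mean of 1691 (n = 3). The log2 fold change was 1.32 (SE 0.07, 95% confidence interval 1.18 to 1.47, limma adjusted p = 1.0e-13). Egr2, on chromosome 10 from 67535475 to 67542188, whose product directs myelination and restrains lymphocyte and macrophage activation, was the lowest of the 9 genes. Its counts were 30.2, 26.1 and 28.1 in control and 52.96, 43.99 and 57.5 in midkine libraries. These do not overlap, although the control group rests on 87 reads and the midkine group on 152. Egr2 rose by 0.84 on the log2 scale (SE 0.21, limma adjusted p = 0.0019).

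Egr3, on chromosome 14 from 70077203 to 70082614, is an inducible relative that acts with Egr2 in lymphocytes, and its replicates were less even. Its counts were 133, 90.5 and 108 in control and 167, 174 and 130 in midkine libraries, so midkine replicate 3 lay just below control replicate 1. Egr3 had a log2 fold change of 0.51 (95% confidence interval 0.20 to 0.81, limma adjusted p = 0.0071). Without control replicate 2 that value was 0.37 and was not called (limma adjusted p = 0.0629), and over 19 alternatives the adjusted p lay between 0.0012 and 0.17. Within each library, the ratio of Egr3 to Egr1 was lower with midkine, at 0.0305 to 0.0407 against 0.0545 to 0.0786. That of Egr2 to Egr1 was 0.0101 to 0.0135 against 0.0157 to 0.0178. Neither pair of ranges overlaps. The two-sided exact permutation test gave p = 0.1 for each, also adjusted over 4 such comparisons, the smallest p that 3 against 3 allows. Egr1, the denominator, rose most of the Egr members, so both ratios restate the fold changes and are no separate evidence.

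Proteins that hold the Egr factors back are encoded by Nab1 and Nab2, and Nab2 is itself a known Egr target. The normalised read count of Nab2 was 36.1 ± 5.95 in control and 92.0 ± 18.6 in midkine libraries (SD, n = 3 each), a rise (log2 fold change 1.32, limma adjusted p = 3.5e-06). Nab1 fell by 0.29 on the log2 scale, from 526 ± 16.0 to 431 ± 17.0 (limma adjusted p = 0.0092). The rise of Nab2 was close in size to that of Egr1. Egr4 was not analysed here.

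Nr4a1 encodes an orphan nuclear receptor that antigen-receptor signalling induces in lymphocytes and that limits inflammation in myeloid cells. It lies on chromosome 15 from 101254269 to 101274795, and it was the only member that was not called. Its counts were 69.9, 48.5 and 58.4 in control and 87.9, 62.3 and 75.7 in midkine libraries, with midkine replicate 2 below control replicate 1. The log2 fold change was 0.35, with a 95% confidence interval from -0.02 to 0.72 (limma adjusted p = 0.12). That interval holds both 0 and values as large as the change of Egr3, and the depth behind it was 182 control and 221 midkine reads. Without control replicate 1 the value was 0.48 with an adjusted p of 0.0503, the lowest of 19 alternatives, the highest being 0.68. Both relatives, named after their values were seen, were called. Nr4a3 stood at 62.3, 42.0 and 44.8 in control and 109, 89.8 and 67.6 in midkine libraries (log2 fold change 0.82), which do not overlap. Nr4a2 stood at 126, 75.6 and 70.9 and at 123, 136 and 140 (log2 fold change 0.59), which overlap.

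The Ier genes share a name for their kinetics rather than a fold. Ier3 encodes a stress-inducible protein that affects cell survival and NF-kB and ERK signalling, and it lies on chromosome 17 from 35821684 to 35822923. Its counts were 363, 445 and 413 in control and 2935, 2960 and 2927 in midkine libraries. The midkine libraries differed by a CV of 0.586%, less than the 1.85% that read counting alone would give, while the controls differed by 10.2%. Ier3 had a log2 fold change of 2.86 (95% confidence interval 2.69 to 3.03, limma adjusted p = 1.5e-18), the smallest p of the 11844 genes tested. By size its rise ranked 18 among them. It kept its call under all 19 alternatives, at 2.60 to 2.92. Ier3 made up 4.17% to 6.17% of the summed counts of the 9 members in control libraries and 18.3% to 19.6% in midkine libraries.

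Ier2 and Ier5 moved by less than Ier3. Ier2, a nuclear protein gene on chromosome 8 from 84661331 to 84662852, had counts of 230, 245 and 216 in control and 398, 387 and 409 in midkine libraries. The groups do not overlap (log2 fold change 0.79, SE 0.10, limma adjusted p = 3.1e-07). Ier5, a relative of Ier2 that assists the heat shock factor HSF1, lies on chromosome 1 from 155096361 to 155099636 and was the most abundant member, at 4683, 3428 and 3580 in control and 5142, 5653 and 5926 in midkine libraries. Control replicate 1 was the highest control library and still lay below every midkine library. The log2 fold change of Ier5 was 0.53 (SE 0.09, limma adjusted p = 5.7e-05), and it was 0.27 with quantile normalization and 0.27 with scaling to total counts, called in both. The ratio of Ier2 to Ier3 within a library was 0.523 to 0.633 in control and 0.131 to 0.140 with midkine, and that of Ier5 to Ier3 was 7.70 to 12.9 and 1.75 to 2.02. Both ratios separated the groups, with exact permutation p = 0.1, the smallest possible. Ier3, the denominator, had the largest rise of the members, so both ratios restate the fold changes and are no separate evidence. The relative Ier5l, named after its values were seen, rose by 0.87 on the log2 scale.

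Zfp36 and Btg2 encode proteins that act on messenger RNA: Zfp36 (tristetraprolin) brings AU-rich messages to the CCR4-NOT deadenylase, and Btg2, an antiproliferative protein and p53 target, binds the same complex. Zfp36, on chromosome 7 from 28376784 to 28380253, had counts of 747, 744 and 722 in control and 1357, 1307 and 1444 in midkine libraries. The groups were well apart, and Zfp36 rose by 0.89 on the log2 scale (SE 0.08, limma adjusted p = 8.7e-10). Its relatives rose alike in size: Zfp36l1 by 0.91 (1916 ± 96.4 to 3601 ± 241, mean ± SD, n = 3 each) and Zfp36l2 by 0.89 (1656 ± 202 to 3072 ± 353). Btg2, on chromosome 1 from 134075170 to 134079120, had counts of 751, 529 and 610 in control and 744, 748 and 801 in midkine libraries. Control replicate 1 lay above 2 of the midkine libraries. Btg2 had a log2 fold change of 0.29 (95% confidence interval 0.09 to 0.50, limma adjusted p = 0.0202), the smallest of the called members. The call ended without control replicate 2 (0.17, limma adjusted p = 0.192), without control replicate 3 (0.28, limma adjusted p = 0.0642) and without midkine replicate 3 (0.26, limma adjusted p = 0.0887). Over 19 alternatives the adjusted p of Btg2 lay between 0.00045 and 0.795.

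**Figure D2:**
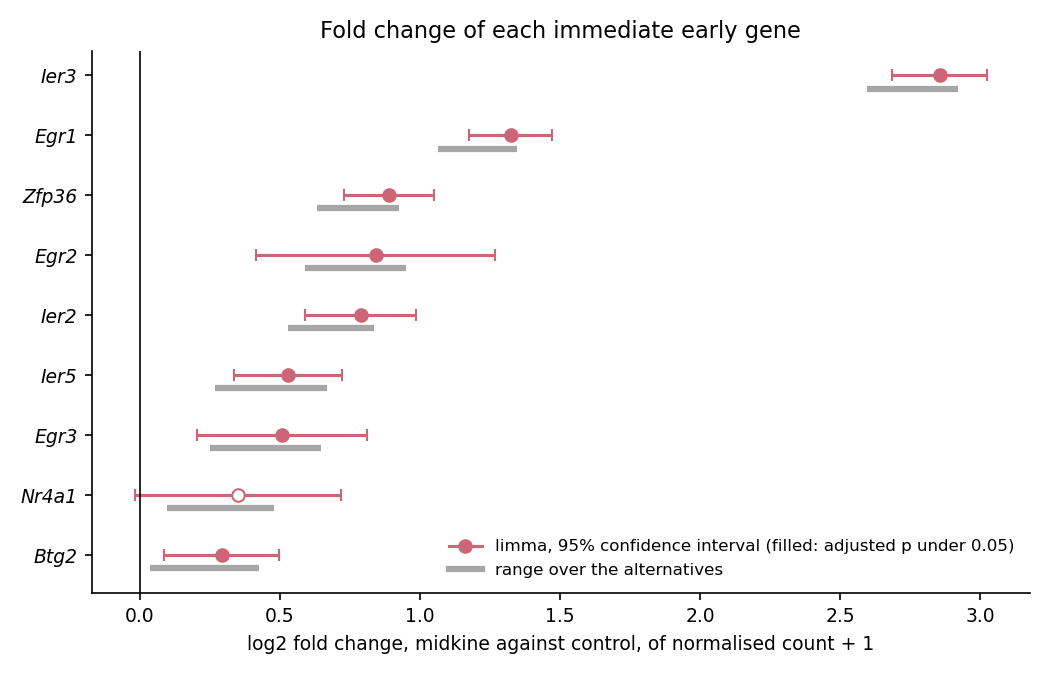
Log2 fold change of each member, midkine against control, of normalised read count + 1 (horizontal axis), with 95% confidence intervals from limma. Grey bars give the range over the alternative analyses. Ier3 at 2.86 and Egr1 at 1.32 lie above the other 7 genes, and the interval of Nr4a1 reaches below 0.

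In the 3′ end assay a transcript gives reads from its end only, so the normalised read counts were not divided by length. On this scale the order in control libraries was Ier5, Egr1, Zfp36, Btg2, Ier3, Ier2, Egr3, Nr4a1 and Egr2. Neighbours in that order had separate ranges except Zfp36 and Btg2. In midkine libraries Ier3 had moved from the fifth to the third place, above Zfp36 and Btg2, and no neighbours overlapped. The summed count of the 9 genes was 7217 to 8702 in control and 14981 to 16034 in midkine libraries.

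The overlaps of Egr3, Nr4a1 and Btg2 all involved control replicate 1. That library had the highest control value for 6 of the 9 members, against 37.0% of all genes tested, and control replicate 2 the lowest for 6, against 33.0%. Ier5, Btg2, Nr4a1 and Egr3 stood at 120%, 119%, 119% and 120% of the control mean in replicate 1. In replicate 2 they stood at 88.0%, 84.0%, 82.3% and 81.8%. Their CV between controls was 17.6% to 19.4%, where read counting alone would give 1.58% for Ier5, 3.93% for Btg2, 12.8% for Nr4a1 and 9.37% for Egr3. Egr1 and Zfp36 varied by 1.64% and 1.82%, below the 2.40% and 3.63% of counting. Ier3 ran the other way, at 89.2% in replicate 1 and 109% in replicate 2. The members thus did not all vary together between control libraries, although Ier5, Btg2, Nr4a1 and Egr3 moved in the same direction. Without control replicate 1 the log2 fold changes were 0.67 for Ier5, 0.65 for Egr3, 0.48 for Nr4a1 and 0.43 for Btg2. Without control replicate 2 they were 0.44, 0.37, 0.22 and 0.17.

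**Figure D3:**
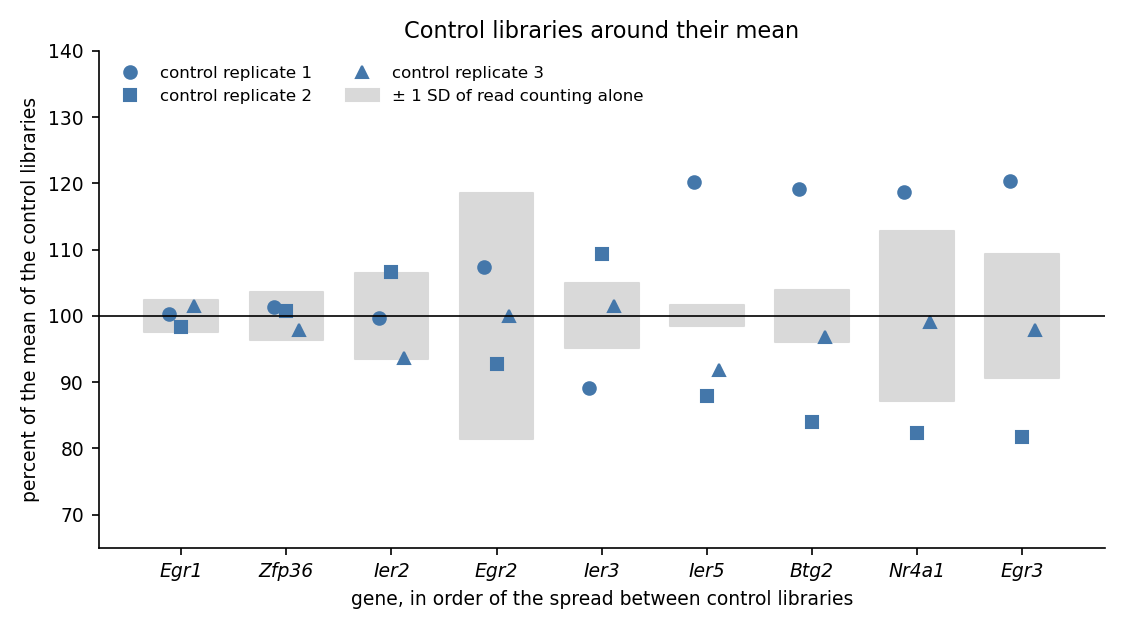
Value of each member in control replicates 1, 2 and 3 as a percent of the mean of the controls (vertical axis), with the genes in order of their spread. Grey boxes span ± 1 SD of read counting alone. Ier5, Btg2, Nr4a1 and Egr3 lie at 119% to 120% in replicate 1, whereas Egr1 and Zfp36 stay within the boxes.

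Relatives of the members, AP-1 genes and other early genes were counted from lists, which were drawn up with earlier results of these data known. Of the 9 measured relatives of the members 7 rose and none fell (median log2 fold change 0.69), with 0 lower in limma at an unadjusted p under 0.05 and 0 in edgeR and DESeq2. When libraries were scaled to their totals, 5 were higher and 1 was lower. The shares of all genes tested were 20.9% higher and 21.8% lower, or 10.8% and 40.7% under that scaling. Of 8 AP-1 genes, whose Fos, Jun and Atf products pair on DNA, 6 rose and 1 fell (median 0.79). Atf3 rose by 1.43 and Fosl2 by 1.30, while Fosb fell by 0.72 on the log2 scale. Of 20 other early genes 14 rose and 6 fell (median 0.75). Ctgf and Plk2 rose by 2.73 and 2.01, and Klf10 and Klf2 fell by 1.19 and 1.03. Ctgf encodes a matricellular protein and Plk2 a polo-like kinase, and the Klf genes encode zinc finger factors. The 6 that fell, the last 4 named after their values were seen, were Klf10, Klf2, Klf4, Myc, Klf6 and Sgk1.

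Genes for the factors and kinases upstream of immediate early genes moved in both directions where called. Over all genes tested 42.7% were called, 20.9% higher and 21.8% lower. Of 12 genes for SRF, CREB and their partners 1 rose and 1 fell (median log2 fold change -0.13). Crtc3, a CREB coactivator gene, rose by 0.45, a call lost without control replicate 3 (0.38, limma adjusted p = 0.0537). Creb1 had a log2 fold change of -0.24, called here but not under 8 of 19 alternatives, among them leaving out control replicate 1 (-0.19), control replicate 2 (-0.25) or midkine replicate 1 (-0.23), 2 (-0.23) or 3 (-0.26). Srf, named after its value was seen, was not called at 0.21. Of 12 genes of the ERK cascade 2 rose and 3 fell (median -0.13). Mapk3, which encodes ERK1, rose by 0.68 and Braf by 0.67, while the ERK-activated kinase gene Rps6ka1 fell by 0.90 and Nras by 0.40, the latter not called without midkine replicate 1 (-0.28, limma adjusted p = 0.0575). Among 8 tested genes of ERK feedback 3 rose and none fell in limma (median 0.07, or -0.19 with 2 higher and 1 lower after scaling to totals). At an unadjusted p under 0.05, and in edgeR and DESeq2, 0 were lower. Dusp5, which encodes an ERK phosphatase, stood at 881 ± 61.1 in control and 1830 ± 247 in midkine libraries (SD, n = 3 each, log2 fold change 1.05). Spry2 rose, from 66 control reads, by 0.78, a call lost under 6 of 18 alternatives, among them leaving out control replicate 1 (0.59), control replicate 3 (0.66) or midkine replicate 3 (0.70). With scaling to total counts the SRF and CREB list had 0 higher in limma (0 at an unadjusted p under 0.05) and 5 lower, and the ERK cascade 2 higher and 9 lower. Under that scaling 10.8% of all genes tested were called higher and 40.7% lower.

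**Figure D4:**
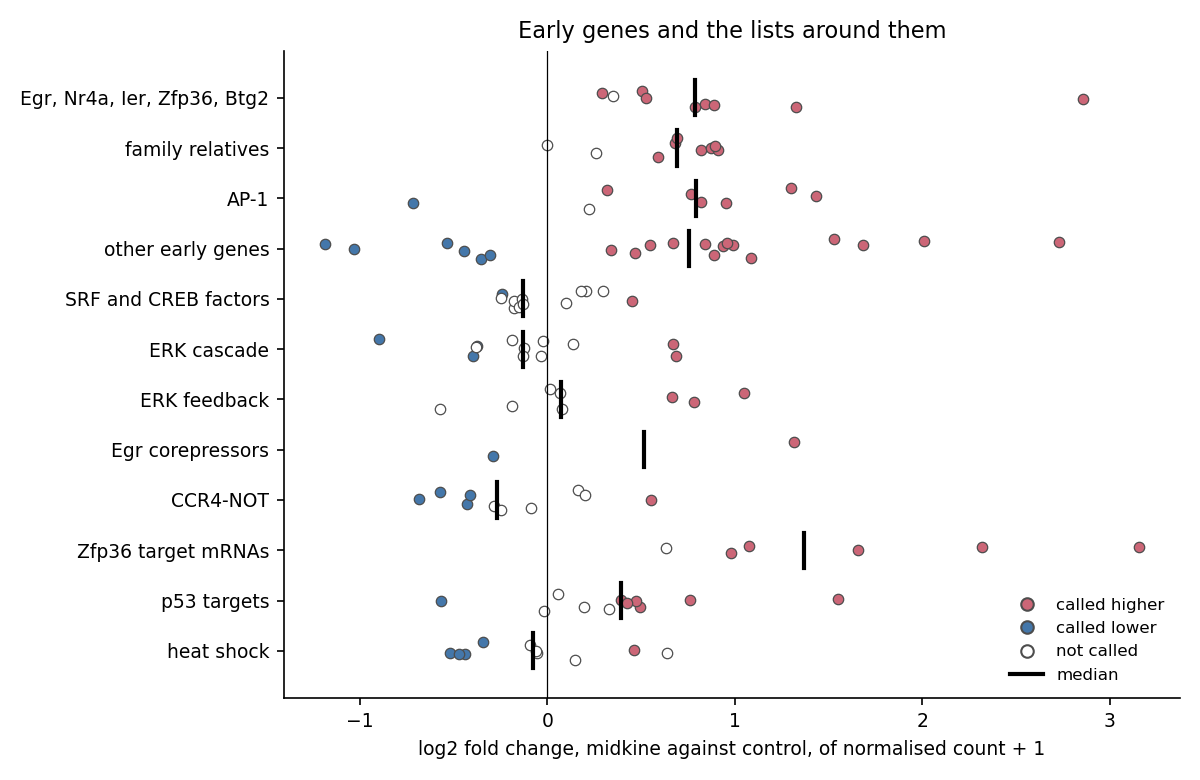
Log2 fold change, midkine against control, of normalised read count + 1 (horizontal axis) for each tested gene of the lists, with a black bar at the median of a list and colour for calls by limma. The members, their relatives, AP-1 and other early genes have medians of 0.69 to 0.79, while the SRF and CREB factors and the ERK cascade have medians of -0.13. Among the Zfp36 target mRNAs, Ptgs2, Cxcl1 and Cxcl2 passed the filter only through their midkine libraries. The median and the calls of that list are therefore not read.

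The CCR4-NOT genes, with which the Zfp36 and Btg2 proteins act, moved in both directions where called. Of 10 CCR4-NOT subunit genes 1 rose and 4 fell (median log2 fold change -0.27). The shares of all genes tested were 20.9% higher and 21.8% lower, 42.7% in all. Cnot3 rose by 0.55, while Cnot9 and Cnot6 fell by 0.69 and 0.57. With scaling to total counts 1 was higher and 7 lower, when 10.8% of all genes were called higher and 40.7% lower. Without a variance trend 2 were lower, when 17.4% of all genes were called lower. Of 10 messages known as Zfp36 targets in macrophages 6 were tested, but 3 of these passed the filter only through their midkine libraries, so no count over the list is read here. Those 3 were Ptgs2, Cxcl1 and Cxcl2, with control means of 1.599, 6.77 and 9.72 and midkine means of 22.0, 14.3 and 15.4. The other 3, Il1b, Ccl3 and Tnf, were called higher, with log2 fold changes of 2.32, 1.66 and 1.08. All 3 encode inflammatory cytokines, and all of these genes except Ptgs2 and Il1b were named after their values were seen. Over the alternatives the number of called targets ran from 2, with a minimum mean of 50, to 6, and it was 3 without midkine replicate 1. These numbers change with the filter and can include Ptgs2, Cxcl1 and Cxcl2, so they are not read as a result either. Csf2 and Il23a were not analysed here, and Il6 and Il10 were below the minimum.

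Beside Btg2 and Ier5, which p53 can induce, 6 of 11 other p53 target genes rose and 1 fell (median log2 fold change 0.39), or 2 and 1 after scaling to totals. The shares of all genes tested were 20.9% higher and 21.8% lower, or 10.8% and 40.7% after scaling to totals. Cdkn1a, which encodes the Cdk inhibitor p21, stood at 637 ± 66.0 in control and 1860 ± 22.4 in midkine libraries (SD, n = 3 each, log2 fold change 1.55), a rise, and Zmat3 rose by 0.76. Sesn1 fell by 0.57 on the log2 scale, a call lost without control replicate 3 (-0.47, limma adjusted p = 0.0623, over 19 alternatives 0.00036 to 0.0623). Of 10 tested genes of the heat shock response, among them Hsf1 itself, 1 rose and 4 fell (median -0.08). Hspa8 and Dnaja1 fell by 0.52 and 0.47, and Bag3 rose by 0.46. Scaled to totals, Bag3 was at 0.21 and lost its call (limma adjusted p = 0.181, the highest of 19 alternatives, the lowest being 0.00096).

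The genes with the pattern most like that of Egr1 over the 6 libraries were Hist1h1c, Ptger2 and Mmp12. They were chosen by the smallest Euclidean distance between log2 values set to 0 at the control mean, which was 0.14, 0.16 and 0.16. Predicted genes, with Gm or Rik symbols, were passed over in this choice. Hist1h1c encodes a linker histone, Ptger2 a prostaglandin E2 receptor and Mmp12 a macrophage elastase, with log2 fold changes of 1.30, 1.34 and 1.41. The genes nearest to Ier3 were Ifitm1, Inhba and Ramp3, at distances of 0.26, 0.34 and 0.35. Ifitm1, an interferon-inducible membrane protein gene, stood at 2274 ± 389 in control and 15123 ± 523 in midkine libraries (mean ± SD, n = 3 each). Inhba encodes the activin A subunit and Ramp3 a receptor-modifying protein, with log2 fold changes of 2.87 and 2.78.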

How the data were processed

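Expression was read by 3′ end sequencing with QuantSeq (forward kit) from 500 ng of total RNA for 3 control and 3 midkine libraries, with a mean RNA integrity number of 8 (range 5 to 10), per the labels. The submitters' processing notes name HTSeq, DESeq2, TopHat2 2.0.10 with Bowtie 1.0.0, FastQC 0.11.0 and SAMtools 0.1.19, and the builds GRCm38 and mm10. How HTSeq treated strand, and its annotation, was not given in the sources used here. What the authors deposited is a signal: the reads of a gene after division by one factor for each library. From it whole reads could be recovered, since 100% of values were whole multiples of the value of 1 read within 1e-06.

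Genes with a mean value of at least 10 were tested with limma 3.58.1 (R 4.3.3, variance trend) on log2(value + 1), with Benjamini-Hochberg adjustment over all 11844 genes. Alternatives were pseudocounts of 0.5 and 5, filters at 1, 50 or none, TMM, total-count and quantile scaling, no variance trend, a replicate block, edgeR 4.0.16 and DESeq2 1.42.0 on recovered reads, and leaving out each library. The fit was tested on simulated data, in which far fewer genes changed than were called here. No value in the text rests on that simulation. Members and lists were chosen with earlier results of these data known. Named genes were all members, up to 2 called genes in each direction per list and the 3 genes nearest to Egr1 and to Ier3. Predicted genes were passed over among the nearest. Positions are from GENCODE vM21. No molecular identifiers are named, so counting errors cover read counting only. Figures were drawn with matplotlib 3.10.9, and tables were made with pandas 2.3.3, NumPy 2.4.6 and SciPy 1.17.1 in Python 3.11.15.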

Additional observations from a re-analysis of the deposited data

How the results depend on the processing

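Over 19 alternatives the count of members called higher ranged from 6 to 8, and none was called lower. Egr1, Ier2, Ier3, Ier5 and Zfp36 were called in all 19, and Egr2 in all 18 that tested it, since a filter at a mean of 50 removed it. Nr4a1 was called in none. Leaving out single libraries gave 6 to 8 members, the lowest without control replicate 2. Scaling to total counts gave 6 members, with Egr3 at 0.25 (limma adjusted p = 0.17) and Btg2 at 0.03 (limma adjusted p = 0.795) not called. It moved the median of all genes to -0.26 and gave 1283 higher and 4817 lower genes, 21.0% of calls higher against 49.0%. Relative to that median Egr1 was at 1.33, Ier3 at 2.86 and Btg2 at 0.30. Total counts without 3 ribosomal RNA rows (mt-Rnr1, mt-Rnr2 and Gm42418), chosen after seeing the data, gave 7 members, 2023 higher and 3178 lower genes, with Btg2 at 0.21 and not called (limma adjusted p = 0.0828). Without a variance trend 6 members were called, with Egr3 (limma adjusted p = 0.0643) and Btg2 (limma adjusted p = 0.151) lost. The cause was not tested. A replicate block gave 8 members, 2519 higher and 2641 lower genes, and changed no call of a member. No shared deviation of same-numbered libraries was seen, with correlations of -0.01, 0.03 and -0.06. Such values cannot tell whether these libraries were paired by design. The 4 within-library ratios kept their direction under 8 alternatives each, at -0.56 to -0.36 for Egr2 over Egr1, -0.94 to -0.68 for Egr3 over Egr1, -2.13 to -1.99 for Ier2 over Ier3 and -2.48 to -2.11 for Ier5 over Ier3 (log2). Each denominator was the member of its family with the largest rise, so these directions restate the fold changes. Depth limits Egr2 and Nr4a1, with 87 and 182 control reads.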
